A study of Bos taurus with 12 samples.

Results

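The genes described here are 8 regulators of the first lineages that separate from the embryo proper: GATA2, GATA3, TFAP2A, TFAP2C, TEAD4 and EOMES, which are linked to trophoblast, and GATA6 and PDGFRA, which are linked to hypoblast. They were chosen by name, each as the entry of the count table whose Entrez identifier carries that bovine symbol, and they are 8 of 19285 entries. All 8 have exactly 1 entry. They were followed in poly-A RNA of wild-type bovine embryonic stem cells, all of the single line F7. The 12 libraries fall into 4 groups of 3, named 1/7MC+Pyr+FGF, 1/7MC+Pyr, 1/7MC and MC, the last carrying the treatment label NC. By the series title, the additions are pyruvate and a recombinant human fibroblast growth factor (FGF), given to cells on sparse feeders. What MC stands for is not spelled out, so the group names are used as they are. No label states that replicates were separate cultures, so p-values measure the spread between these libraries, which may be technical.

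In the mammalian blastocyst the outer cells become trophoblast, the future placenta, while the inner cells split into epiblast, from which embryonic stem cells are derived, and hypoblast, which lines the yolk sac. In the mouse, TEAD4 with its coactivator YAP1 opens the trophoblast programme, and GATA3, TFAP2C and EOMES maintain it, while GATA6 drives the hypoblast and the receptor PDGFRA marks it. None of these genes belongs to these lineages alone: GATA2 also acts in blood and endothelium, TFAP2A in surface ectoderm and neural crest, EOMES in mesendoderm, GATA6 in heart and gut, and PDGFRA in fibroblasts. In a bulk sample, fewer cells of a type and less RNA per cell cannot be told apart.

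Total counts ranged from 27373759 to 44440972 per library. The gene models behind MC replicates 2 and 3 differ from those of the remaining 10 libraries: entries with the same Entrez identifier carried unequal counts for 53 of 61 such identifiers in those 2 libraries and for 0 of 61 in each of the others. For this reason each member's difference from MC has a second value, from a fit with MC replicate 1 and not the other 2. That lone library is assumed to vary like the other groups. Differences of other listed genes from MC come from the fit with all 3 MC libraries unless stated. The hypoblast and endoderm factor FOXA2 had 109 and 97 counts in MC replicates 2 and 3 and 1 count in MC replicate 1; the part of the gene models in that was not tested. Levels are depth-normalised counts (CPM) after trimmed-mean scaling. Differences were tested with edgeR's quasi-likelihood F test with Benjamini-Hochberg adjustment over all genes tested, and a gene was called at an adjusted p under 0.05. Fold changes are log2 of the first-named group over the second, given ± SE, with n = 3 libraries per group unless MC replicate 1 stands alone.

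The libraries carried the RNA of the labelled cell type: the 9 listed pluripotency genes with an entry summed to 3343 to 3771 CPM in 1/7MC+Pyr+FGF, 4183 to 4425 CPM in 1/7MC+Pyr, 2501 to 2796 CPM in 1/7MC and 4466 to 4558 CPM in MC. The highest of them were DNMT3B and POU5F1, with means of 1479 and 1047 CPM over the 12 libraries, while NANOG averaged 60.6 CPM. SOX2 and TDGF1, also listed, had no entry among those kept. Several defining genes of mature trophoblast were at or near 0. IFNT2, the interferon by which the ruminant conceptus signals pregnancy, the pregnancy-associated glycoproteins PAG2 and PAG11, the trophoblast Kunitz protein TKDP1 and the placental lactogen CSH2 had 0 counts in all 12 libraries. A count of 0 allows up to 3 counts, which is 0.0703 to 0.111 CPM across the libraries and covers counting error only. CDX2, the classical trophectoderm factor, had 8 counts over all 12 libraries, ELF5 had 6, HAND1 had 13 and the glycoprotein gene PAG8 had 17. SSLP1, from the same list of trophoblast genes, passed the filter with 154 counts over the 12 libraries. VGLL1, IFNT3 and PLAC8 had no entry among those kept. Of the hypoblast factors, GATA4 had 21 counts over all libraries, SOX17 64 and HNF4A 59, and none of these 3 passed the filter with all 12 libraries. Other genes listed for the 2 lineages were abundant. Of 25 trophoblast genes with an entry 16 passed the filter, and KRT8, KRT18 and KRT19 averaged 905, 429 and 163 CPM. Of 24 hypoblast genes 17 passed, and SPARC, FN1 and COL4A1 averaged 3161, 2238 and 1250 CPM. The members are described here as genes, not as marks of trophoblast or hypoblast cells.

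All 8 members passed the filter on low counts, which asks for about 0.297 CPM in at least 3 libraries, but most are weakly expressed. TFAP2A had 5 to 45 counts per library, under 10 in 3 of 12 libraries, and reached the filter's level in 8 libraries. GATA2 had 7 to 46 counts, under 10 in 1 library. These 2 are at the edge of what the depth can measure: the 5 counts of TFAP2A in 1/7MC+Pyr replicate 3 have an exact Poisson 95% interval of 1.62 to 11.7 counts, for counting error only. GATA3 (13 to 424 counts), GATA6 (13 to 94), PDGFRA (42 to 222), EOMES (48 to 138) and TFAP2C (61 to 204) were measurable throughout, and TEAD4 had 566 to 1107 counts.

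Per kilobase of gene length, the scale on which genes can be set side by side, TEAD4 averaged 15.1 CPM per kb over the 12 libraries and lay at the 64.1st percentile of all genes tested. TFAP2C followed with 1.06 CPM per kb, GATA3 with 0.915, EOMES with 0.716, GATA6 with 0.653, PDGFRA with 0.378, GATA2 with 0.234 and TFAP2A with 0.122. These other 7 members lay between the 3.7th percentile (TFAP2A) and the 19.3rd (TFAP2C). The order was not the same in every group. In 1/7MC, GATA3 averaged 2.22 ± 0.27 CPM per kb (SD, n = 3) and exceeded TFAP2C at 0.833 ± 0.15, whereas in MC it averaged 0.144 ± 0.030 and TFAP2C 1.81 ± 0.09.

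**Figure D1:**
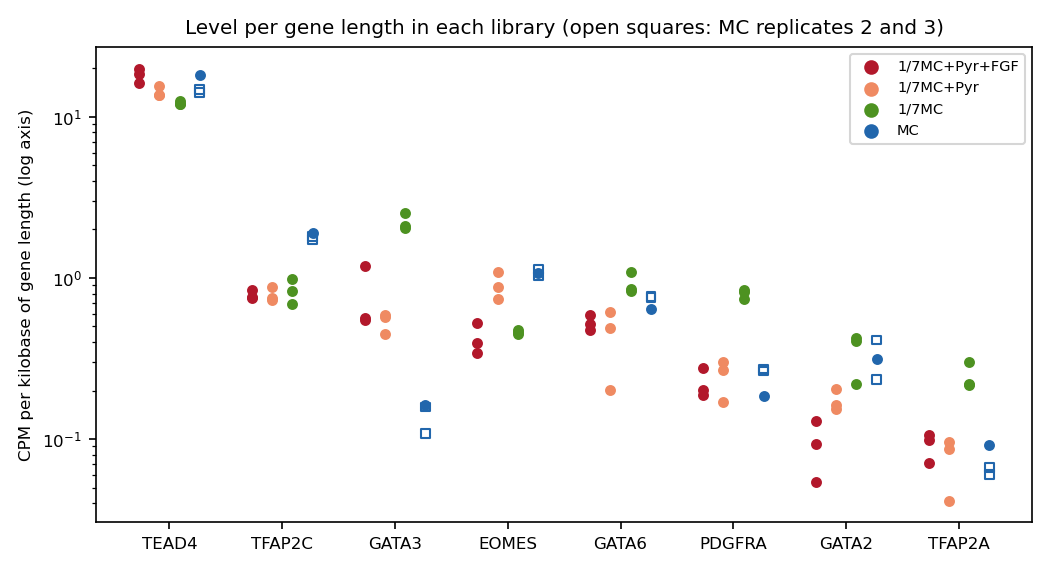
Level of each lineage factor per kilobase of gene length (CPM per kb, log axis) in each of 12 libraries, with groups from left to right as in the legend and MC replicates 2 and 3 as open squares. TEAD4 stands above the other 7 genes in every library, and GATA3 spans the widest range between groups.

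GATA3, a zinc-finger factor of trophectoderm, had the widest fold range of the 8. It had 2.51, 2.42 and 5.24 CPM in the 1/7MC+Pyr+FGF libraries, 2.60, 2.53 and 1.99 CPM in 1/7MC+Pyr, 9.28, 11.2 and 9.07 CPM in 1/7MC, and 0.728, 0.702 and 0.482 CPM in MC. Every 1/7MC library was above all others and every MC library below all others, while the libraries with pyruvate lay between them. Replicate 3 of 1/7MC+Pyr+FGF stood well above its 2 fellows. Its relative GATA2, which acts in trophoblast and in blood, had 0.164, 0.393 and 0.283 CPM in 1/7MC+Pyr+FGF, 0.617, 0.489 and 0.462 CPM in 1/7MC+Pyr, 1.28, 1.22 and 0.664 CPM in 1/7MC, and 0.952, 1.24 and 0.705 CPM in MC. The 3 libraries with FGF were the lowest of the 12, and 1/7MC overlapped with MC.

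TFAP2A and TFAP2C encode AP-2 proteins that bind the same GC-rich element. TFAP2A, the AP-2 gene of surface ectoderm and neural crest as well as trophoblast, had 0.304, 0.424 and 0.453 CPM in 1/7MC+Pyr+FGF, 0.411, 0.374 and 0.178 CPM in 1/7MC+Pyr, 0.945, 0.928 and 1.30 CPM in 1/7MC, and 0.392, 0.287 and 0.260 CPM in MC. The 3 1/7MC libraries were above the other 9, which overlapped. TFAP2C, which in the mouse is also a factor of germ cell precursors, had 2.53, 2.27 and 2.30 CPM in 1/7MC+Pyr+FGF, 2.26, 2.65 and 2.20 CPM in 1/7MC+Pyr, 2.06, 2.49 and 2.95 CPM in 1/7MC, and 5.71, 5.17 and 5.42 CPM in MC. Here the 3 MC libraries stood apart above the other 9, and the other 3 groups overlapped one another.

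TEAD4, the DNA-binding partner of YAP1, had 25.9, 31.8 and 29.5 CPM in 1/7MC+Pyr+FGF, 21.9, 21.9 and 25.0 CPM in 1/7MC+Pyr, 19.1, 19.9 and 19.2 CPM in 1/7MC, and 28.9, 22.6 and 23.5 CPM in MC. The 1/7MC libraries were the lowest 3, and MC replicate 1 was higher than the 2 MC libraries of other gene models. EOMES, a T-box factor, had 1.24, 1.91 and 1.42 CPM in 1/7MC+Pyr+FGF, 3.19, 3.91 and 2.66 CPM in 1/7MC+Pyr, 1.62, 1.72 and 1.67 CPM in 1/7MC, and 3.87, 4.05 and 3.71 CPM in MC. Its libraries formed a high set, 1/7MC+Pyr and MC, and a low set, 1/7MC+Pyr+FGF and 1/7MC, with no overlap between the sets.

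Of the hypoblast-linked pair, GATA6 had 1.08, 1.18 and 1.33 CPM in 1/7MC+Pyr+FGF, 1.41, 1.12 and 0.462 CPM in 1/7MC+Pyr, 1.96, 2.49 and 1.88 CPM in 1/7MC, and 1.46, 1.72 and 1.74 CPM in MC. The 1/7MC libraries were the highest 3, and replicate 3 of 1/7MC+Pyr lay well under all others. PDGFRA, the receptor for platelet-derived growth factor A, had 1.34, 1.97 and 1.45 CPM in 1/7MC+Pyr+FGF, 1.92, 1.21 and 2.17 CPM in 1/7MC+Pyr, 6.04, 5.89 and 5.28 CPM in 1/7MC, and 1.32, 1.95 and 1.89 CPM in MC. The 3 1/7MC libraries stood far above the other 9, which overlapped.

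**Figure D2:**
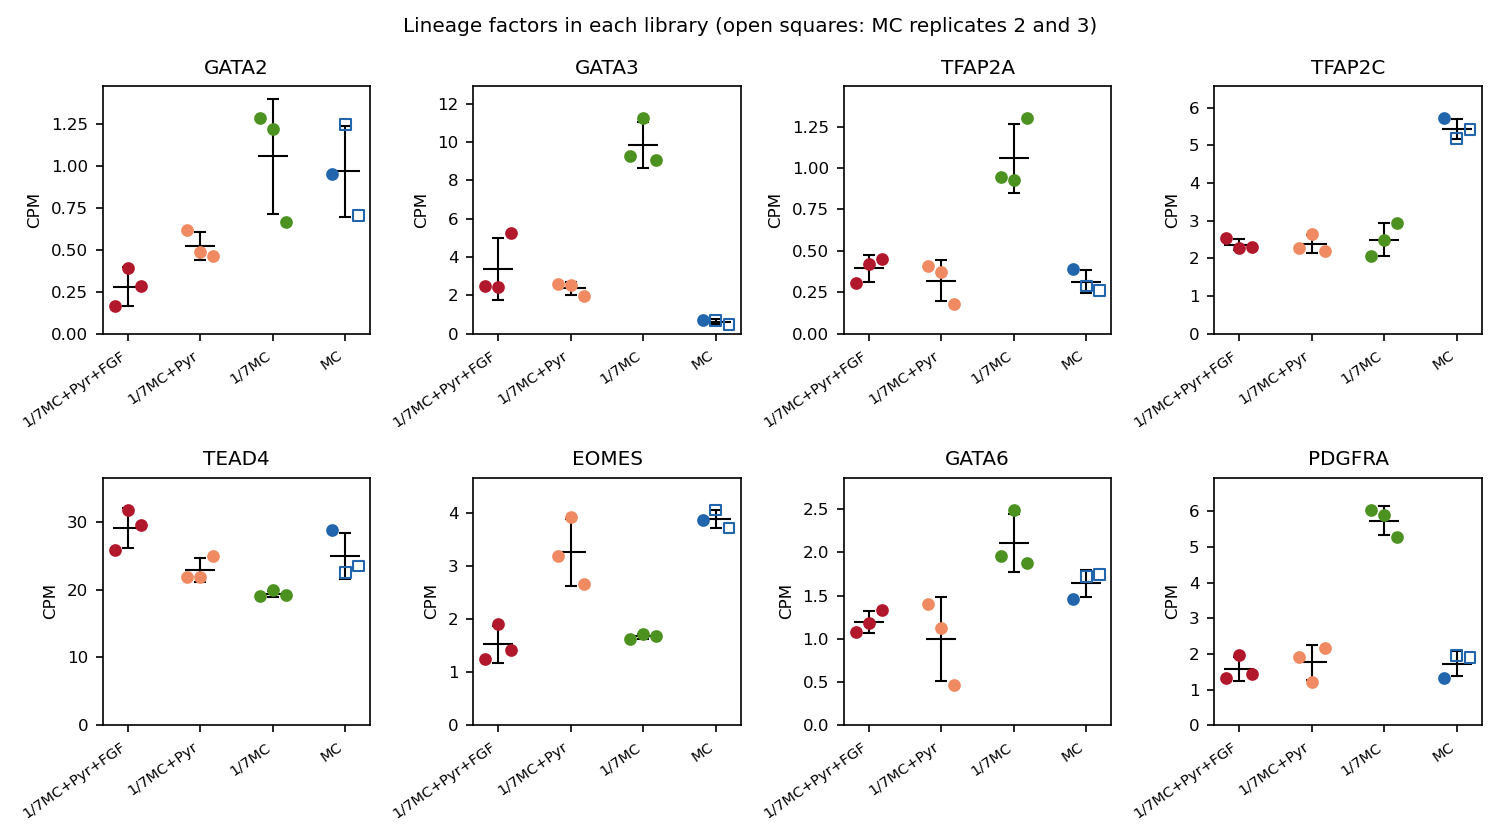
CPM of the 8 lineage factors in each library, one panel per gene with its own axis from 0; dots are libraries, open squares MC replicates 2 and 3, and bars the group mean ± SD (n = 3). GATA3, TFAP2A and PDGFRA are highest in all 3 1/7MC libraries, TFAP2C is highest in all 3 MC libraries, and EOMES is high in 1/7MC+Pyr and MC.

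The comparison of 1/7MC with MC asks what differed with neither addition. GATA3 rose by 3.93 ± 0.32, a 15.2-fold difference, PDGFRA by 1.74 ± 0.24 and TFAP2A by 1.73 ± 0.35. EOMES fell by 1.21 ± 0.20 on the log2 scale, TFAP2C by 1.12 ± 0.17 and TEAD4 by 0.36 ± 0.12. GATA6 (0.37 ± 0.30) and GATA2 (0.12 ± 0.34) did not pass the test. The edgeR adjusted p was 1.28e-06 for GATA3, 9.52e-05 for PDGFRA, 0.00156 for TFAP2A, 0.000381 for EOMES, 0.000162 for TFAP2C and 0.0238 for TEAD4. In all, 6 of 8 members were called, 3 in each direction, where 45.0% of 13920 genes were called (23.7% higher, 21.3% lower); the median over the members was 0.24 and over all genes 0.01. Against MC replicate 1 alone, 5 members were called where 23.9% of 14361 genes were (14% higher, 9.96% lower): GATA3 (3.77 ± 0.49), PDGFRA (2.13 ± 0.37), TFAP2C (-1.18 ± 0.25), EOMES (-1.19 ± 0.30) and TEAD4 (-0.56 ± 0.16). TFAP2A missed the threshold there (1.43 ± 0.56, edgeR adjusted p = 0.0829). The TEAD4 call was lost without MC replicate 1 (edgeR adjusted p = 0.0962), without 1/7MC replicate 1 (0.0687) or replicate 3 (0.0557), in the fit of these 2 groups only (0.0515) and, by limma, on the rescaled signal (-0.26, limma adjusted p = 0.176).

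The comparison of 1/7MC+Pyr with MC brings in the first addition, labelled Pyr. GATA3 was still higher, by 1.88 ± 0.33 (3.68-fold, edgeR adjusted p = 0.00114), and TFAP2C still lower (-1.19 ± 0.17, edgeR adjusted p = 0.000217). The others did not pass: GATA2 differed by -0.89 ± 0.37, GATA6 by -0.71 ± 0.32, EOMES by -0.25 ± 0.19, TEAD4 by -0.12 ± 0.12, TFAP2A by 0.03 ± 0.40 and PDGFRA by 0.04 ± 0.25. Thus 2 of 8 members were called where 28.4% of genes were (15.2% higher, 13.2% lower), with a median of -0.19 over the members and -0.01 over all genes. Against MC replicate 1 alone the same 2 members were called, where 9.71% of genes were (6.56% higher, 3.15% lower): GATA3 (1.72 ± 0.49, edgeR adjusted p = 0.0413) and TFAP2C (-1.25 ± 0.25, edgeR adjusted p = 0.00496). Without 1/7MC+Pyr replicate 1, GATA6 passed as well (-1.02, edgeR adjusted p = 0.0478). The 3949 genes called overall became 2571 without MC replicate 2 and 2616 without MC replicate 3.

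With both additions, in 1/7MC+Pyr+FGF against MC, GATA3 was higher by 2.39 ± 0.32 (5.23-fold, edgeR adjusted p = 0.000172). Lower were GATA2 (-1.81 ± 0.39, edgeR adjusted p = 0.00437), EOMES (-1.36 ± 0.20, edgeR adjusted p = 0.000369) and TFAP2C (-1.20 ± 0.17, edgeR adjusted p = 0.000211). TEAD4 (0.22 ± 0.12), TFAP2A (0.30 ± 0.38), GATA6 (-0.46 ± 0.31) and PDGFRA (-0.12 ± 0.25) did not pass. That is 4 of 8 members where 32.5% of genes were called (17.1% higher, 15.4% lower), with medians of -0.29 over the members and 0.04 over all genes. Against MC replicate 1 alone the same 4 were called, where 12% of genes were (5.86% higher, 6.13% lower): GATA3 (2.19 ± 0.48), EOMES (-1.37 ± 0.30), TFAP2C (-1.29 ± 0.25) and GATA2 (-1.80 ± 0.55, edgeR adjusted p = 0.0483). Without MC replicate 1, TEAD4 passed too (0.34, edgeR adjusted p = 0.035), while against that library alone it differed by -0.01 ± 0.16.

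**Figure D3:**
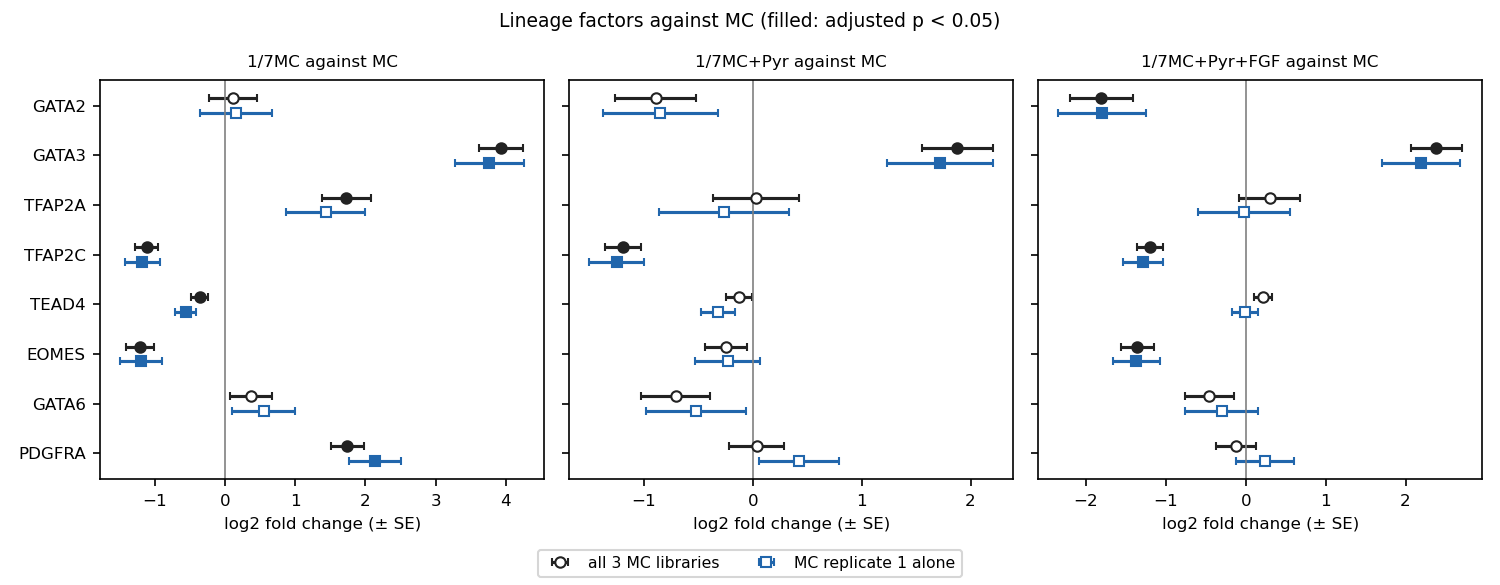
Log2 fold change ± SE of the 8 lineage factors in 1/7MC, 1/7MC+Pyr and 1/7MC+Pyr+FGF against MC, with all 3 MC libraries (circles) and with MC replicate 1 alone (squares); filled symbols have an edgeR adjusted p under 0.05, and each panel has its own axis. GATA3 is higher and TFAP2C lower in all 3 panels and both fits, while TFAP2A is called in 1/7MC with all MC libraries only.

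The labels of 1/7MC+Pyr and 1/7MC differ by Pyr, read here as the pyruvate of the title. Of the genes that were high in 1/7MC, GATA3 fell by 2.05 ± 0.28 on the log2 scale (edgeR adjusted p = 0.000329), PDGFRA by 1.71 ± 0.24 (edgeR adjusted p = 0.000449) and TFAP2A by 1.70 ± 0.35 (edgeR adjusted p = 0.00518), and GATA6 fell by 1.07 ± 0.31 (edgeR adjusted p = 0.0313). EOMES rose by 0.96 ± 0.20, a 1.95-fold difference (edgeR adjusted p = 0.00584). TFAP2C differed by -0.08 ± 0.17, TEAD4 by 0.24 ± 0.12 and GATA2 by -1.01 ± 0.37, and none of these 3 passed. Together 5 of 8 members were called where 18.1% of genes were, 4 lower where 10.1% of genes were lower and 1 higher where 8.08% were higher, with a median of -1.04 over the members and -0.01 over all genes. In the fit with MC replicate 1 alone the same 5 members were called, where 18.6% of genes were (8.20% higher, 10.4% lower). The GATA6 call was not stable: without 1/7MC+Pyr replicate 3, its lowest library, the difference was -0.74 (edgeR adjusted p = 0.0794), and the call was also lost without 1/7MC replicate 1, 2 or 3 or 1/7MC+Pyr replicate 2 (edgeR adjusted p 0.0543 to 0.0991) and with a replicate block (-1.09, edgeR adjusted p = 0.0504). The 2525 genes called overall became 1423 without 1/7MC+Pyr replicate 3, 1467 without 1/7MC replicate 3 and 1648 without 1/7MC replicate 1.

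When 1/7MC+Pyr+FGF was set against 1/7MC, PDGFRA fell by 1.86 ± 0.24 on the log2 scale (edgeR adjusted p = 0.000152), GATA2 by 1.93 ± 0.39 (edgeR adjusted p = 0.00324), GATA3 by 1.54 ± 0.27 (edgeR adjusted p = 0.00121) and TFAP2A by 1.43 ± 0.33 (edgeR adjusted p = 0.00747). TEAD4 rose by 0.58 ± 0.12 (edgeR adjusted p = 0.00323). GATA6 (-0.82 ± 0.30, edgeR adjusted p = 0.0611), EOMES (-0.14 ± 0.21) and TFAP2C (-0.08 ± 0.17) did not pass. These 5 of 8 stand beside 27.6% of genes called (11.9% higher, 15.7% lower), with medians of -1.12 over the members and 0.01 over all genes. The fit with MC replicate 1 alone called the same 5, where 27.7% of genes were called (10% higher, 17.7% lower). Without 1/7MC+Pyr+FGF replicate 3, the highest of that group, GATA3 differed by -2.0. GATA6 passed under 6 of 20 alternatives, among them DESeq2 (DESeq2 adjusted p = 0.0298) and the fit of these 2 groups only (edgeR adjusted p = 0.0265).

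FGF on top of pyruvate, 1/7MC+Pyr+FGF against 1/7MC+Pyr, moved 1 member. EOMES fell by 1.11 ± 0.20 on the log2 scale, to a mean of 1.52 ± 0.34 CPM in 1/7MC+Pyr+FGF, against 3.25 ± 0.63 CPM in 1/7MC+Pyr (SD, n = 3 each; edgeR adjusted p = 0.0136). The other 7 did not pass: GATA2 differed by -0.92 ± 0.42, GATA3 by 0.51 ± 0.28, TEAD4 by 0.34 ± 0.12, TFAP2A by 0.27 ± 0.38, GATA6 by 0.25 ± 0.32, PDGFRA by -0.15 ± 0.25 and TFAP2C by -0.004 ± 0.17. This 1 of 8 stands beside 2.76% of genes called (0.639% higher, 2.12% lower), and the medians were 0.13 over the members and 0.01 over all genes. EOMES was also the 1 member called in the fit with MC replicate 1 alone, where 3.61% of genes were called (0.550% higher, 3.06% lower). The EOMES call was lost without 1/7MC+Pyr+FGF replicate 1 (-0.97, edgeR adjusted p = 0.0752), and GATA3 differed by 0.05 without 1/7MC+Pyr+FGF replicate 3. The 384 genes called overall became 149 without 1/7MC+Pyr+FGF replicate 1, 239 without its replicate 2, 127 without 1/7MC+Pyr replicate 1, 143 without its replicate 3, 240 without 1/7MC replicate 1, 248 without its replicate 3 and 736 without MC replicate 1.

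**Figure D4:**
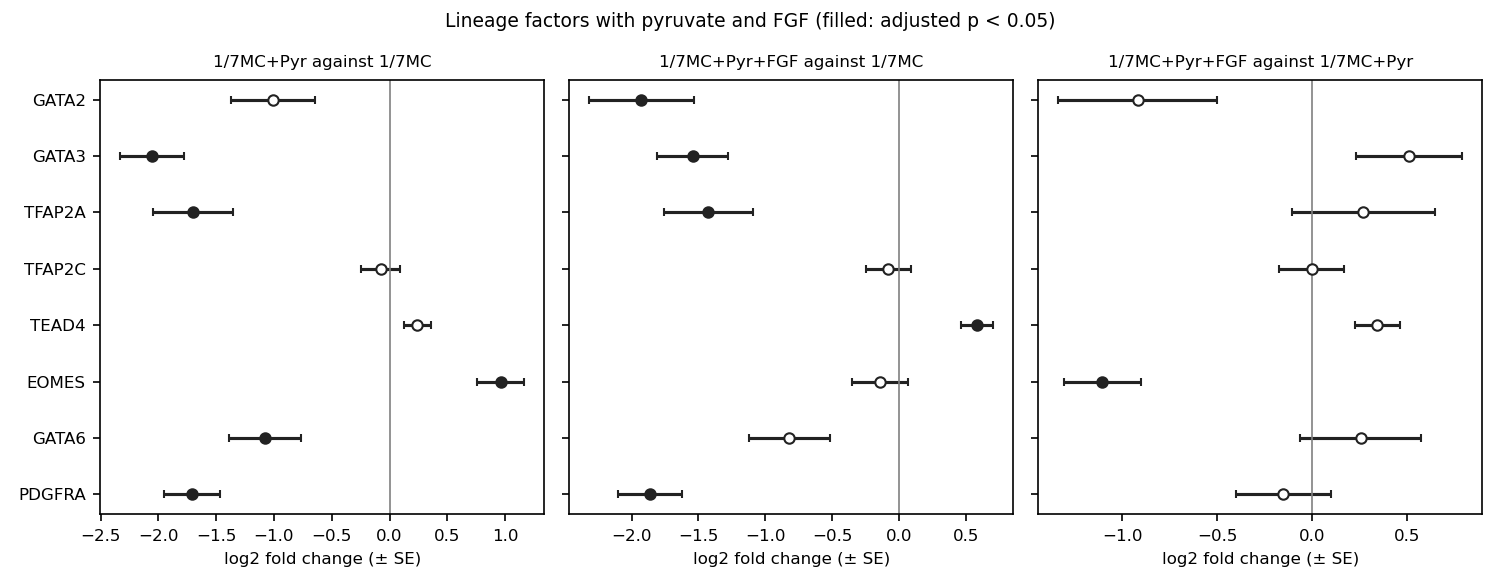
Log2 fold change ± SE of the 8 lineage factors for 1/7MC+Pyr against 1/7MC, 1/7MC+Pyr+FGF against 1/7MC and 1/7MC+Pyr+FGF against 1/7MC+Pyr; filled circles have an edgeR adjusted p under 0.05, and each panel has its own axis. GATA3, TFAP2A and PDGFRA are lower in both comparisons with 1/7MC, and EOMES is higher with pyruvate and lower with FGF on top of it.

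Ordered by their group means, neighbouring groups often missed the test. For GATA3 the order was 1/7MC, 1/7MC+Pyr+FGF, 1/7MC+Pyr and MC, and of the neighbours only the 2 groups with pyruvate missed the test (edgeR adjusted p = 0.335). PDGFRA and TFAP2A had 1 step, between 1/7MC and the other 3 groups, whose neighbours missed the test with edgeR adjusted p of 0.722 to 0.961. TFAP2C had 1 step, between MC and the other 3 groups, and EOMES had 1 step, between 1/7MC+Pyr and 1/7MC. No pair of neighbours passed for GATA2, GATA6 or TEAD4, although the ends of the order did for GATA2 (1/7MC+Pyr+FGF against 1/7MC), GATA6 (1/7MC+Pyr against 1/7MC) and TEAD4 (1/7MC+Pyr+FGF against 1/7MC). The comparisons that share a group share its libraries and are not independent of each other.

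Of 28 other trophoblast genes listed, 25 had an entry and 16 were tested; in 1/7MC against MC, 3 were higher and 7 lower with a median of -0.61, where 23.7% of all genes were higher and 21.3% lower. Against MC replicate 1 alone 3 were higher and 4 lower, where 14% of all genes were higher and 9.96% lower. The keratin KRT7 fell by 2.27 ± 0.15 on the log2 scale, and the imprinted trophoblast factor ASCL2 had 0, 0 and 2 counts in 1/7MC against 18, 41 and 13 in MC. ASCL2 passed the filter through MC, where it was high, so its place among the 7 lower is a description. The homeobox gene MSX2 rose by 1.57 ± 0.16 and TP63, a factor of basal epithelium and villous trophoblast, by 2.35 ± 0.59. Against MC replicate 1 alone MSX2 differed by 1.73 and TP63 by 3.28. With pyruvate, in 1/7MC+Pyr against 1/7MC, 5 of 16 were higher and 1 lower, where 8.08% of all genes were higher and 10.1% lower. KRT8 was at 0.76 ± 0.12 and MSX2 at -1.41 ± 0.15. ASCL2 is among the 5 higher, again as a description. With both additions, 1/7MC+Pyr+FGF against 1/7MC, 5 were higher and 2 lower, where 11.9% of all genes were higher and 15.7% lower. The simple-epithelium keratins KRT18 and KRT8 were at 1.48 ± 0.13 and 1.38 ± 0.13, and TP63 at -1.80 ± 0.54. Between 1/7MC+Pyr+FGF and 1/7MC+Pyr, 3 were higher with FGF, where 0.639% of all genes were: KRT18 (0.91 ± 0.13), KRT8 (0.62 ± 0.12) and MSX2 (0.96 ± 0.15).

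Of 24 other hypoblast-linked genes listed, all had an entry and 17 were tested; in 1/7MC against MC, 10 were higher and 4 lower with a median of 0.66, beside the same shares of all genes. Against MC replicate 1 alone 19 were tested, with a median of 0.82. COL4A1, a basement membrane collagen that fibroblasts also make, rose by 2.96 ± 0.24, and TTR, a thyroid hormone carrier of visceral endoderm, choroid plexus and retinal pigment cells, had 48, 43 and 59 counts in 1/7MC against 0, 2 and 1 in MC (edgeR adjusted p = 1.39e-05). RSPO3, a WNT potentiator, fell by 2.19 ± 0.24. Of the 17 tested, 3 rose in 1/7MC+Pyr against 1/7MC, where 8.08% of all genes rose. They were the endocytic receptors LRP2 (1.23 ± 0.18) and CUBN (0.74 ± 0.13) and fibronectin, FN1 (1.04 ± 0.25). With FGF as well, 1/7MC+Pyr+FGF against 1/7MC, 2 were higher and 4 lower, where 11.9% of all genes were higher and 15.7% lower. LRP2 was at 1.35 ± 0.18, TTR at -1.73 ± 0.38 and BMP2, a ligand of the extraembryonic endoderm, at -1.21 ± 0.26. Between 1/7MC+Pyr+FGF and 1/7MC+Pyr, 1 was higher with FGF and 2 were lower, where 0.639% of all genes were higher and 2.12% lower. The apolipoprotein gene APOA1 was higher (0.76 ± 0.09), and BMP2 (-1.20 ± 0.26) and the matrix protein SPARC (-0.57 ± 0.13) were lower.

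All 16 listed partners and targets of TEAD4 were tested; in 1/7MC against MC 6 were higher and 4 lower, where 45.0% of all genes were called, and against MC replicate 1 alone 3 were higher and 3 lower, where 23.9% were. The coactivator WWTR1 was at 1.23 ± 0.11 and the target CCN2 at 1.32 ± 0.13, while the target CCN1 fell, at -0.78 ± 0.12, as TEAD4 did. Where TEAD4 rose, in 1/7MC+Pyr+FGF against 1/7MC, 1 of 16 was higher and 3 were lower, where 27.6% of all genes were called. CCN1 rose by 0.40 ± 0.12, and WWTR1 fell by 0.79 ± 0.11, CCN2 by 0.47 ± 0.13 and LATS2 by 0.36 ± 0.12 on the log2 scale. All 5 other genes of the platelet-derived growth factor system were tested, and 4 were higher in 1/7MC than in MC, where 23.7% of all genes were higher. The PDGFRA ligand PDGFC averaged 45.7 CPM in 1/7MC, against 6.08 CPM in MC (2.90 ± 0.17; 2.61 against MC replicate 1 alone), and PDGFD averaged 8.99 CPM in 1/7MC, against 1.32 CPM in MC (2.76 ± 0.21; 2.75 against MC replicate 1 alone). PDGFC in 1/7MC+Pyr against 1/7MC fell by 0.87 ± 0.15 and PDGFD, a ligand of PDGFRB, by 0.72 ± 0.19 on the log2 scale, while PDGFA rose by 0.50 ± 0.11. Of the paralogs TFAP2B and TBX6 were tested, while GATA1, GATA4, GATA5, TFAP2D, TBR1 and TBXT were too low to test. TFAP2B, an AP-2 gene of neural crest and kidney, had 3, 6 and 0 counts in 1/7MC+Pyr+FGF, 1, 1 and 3 in 1/7MC+Pyr, 26, 19 and 30 in 1/7MC and 1, 0 and 0 in MC. ZFPM2, a GATA cofactor, had 6, 4 and 5 counts in 1/7MC+Pyr+FGF, 11, 3 and 3 in 1/7MC+Pyr, 14, 15 and 15 in 1/7MC and 0 in each MC library. Both genes, like ASCL2 through MC, passed the filter through the group in which they were high, so their counts are a description with no test.

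Markers of other cells moved with several members, and their part in the results was not tested. All 16 fibroblast and feeder markers were higher in 1/7MC than in MC, with a median of 2.17, where 23.7% of all genes were higher. The summed level of these markers was 14254.5 to 20360.7 CPM in 1/7MC+Pyr+FGF, 20818 to 30753.4 CPM in 1/7MC+Pyr, 18912 to 24713.4 CPM in 1/7MC and 6089.7 to 6305.8 CPM in MC. COL1A1, VIM and COL1A2 weigh most in it, with means of 5034, 3965 and 2769 CPM over the 12 libraries. No marker was at 0 in all 3 libraries of a group. PDGFRA, GATA3 and TFAP2A were higher in 1/7MC than in MC, where the fibroblast sum was higher too. The sum of 1/7MC+Pyr overlapped with that of 1/7MC, and there PDGFRA, GATA3 and TFAP2A were lower than in 1/7MC. In 1/7MC+Pyr against 1/7MC, 2 of 16 markers were higher and 6 lower, where 8.08% of all genes were higher and 10.1% lower. COL6A3 was at 1.47 ± 0.26, while FAP was at -2.61 ± 0.33, BGN at -1.445 ± 0.16 and DCN at -0.81 ± 0.16. For neural crest, 9 of 10 listed genes were tested. In 1/7MC against MC 5 of these were higher and 1 lower, where 23.7% of all genes were higher and 21.3% lower. The factors PAX3 (4.47 ± 0.47), SNAI2 (3.25 ± 0.16) and TWIST1 (2.59 ± 0.12) were up and SOX10 was down (-2.68 ± 0.42). In 1/7MC+Pyr against 1/7MC, where TFAP2A fell, 1 neural crest gene was higher, beside 8.08% of all genes, and 4 were lower, beside 10.1%. The 4 were PAX3 (-4.57 ± 0.48), NGFR (-1.65 ± 0.26), TWIST1 (-1.55 ± 0.12) and SOX9 (-1.18 ± 0.21). The summed level of the list was 118 to 132 CPM in 1/7MC+Pyr+FGF, 135 to 141 CPM in 1/7MC+Pyr, 149 to 167 CPM in 1/7MC and 65.1 to 108 CPM in MC. Most of that sum is ETS1, with a mean of 82.7 CPM over the 12 libraries, and 2994 counts in MC replicate 1 beside 1505 and 1174 in MC replicates 2 and 3.

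Of 12 amnion and surface ectoderm genes, 7 were tested. In 1/7MC against MC 4 were higher and 2 lower, where 23.7% of all genes were higher and 21.3% lower. The largest changes were in the BMP pseudoreceptor BAMBI (4.78 ± 0.19) and the LIM factor ISL1 (4.46 ± 0.26). The summed level of this list was 41.7 to 58.3 CPM in 1/7MC+Pyr+FGF, 39.4 to 45.5 CPM in 1/7MC+Pyr, 108 to 116 CPM in 1/7MC and 42.0 to 45.8 CPM in MC. The 1/7MC libraries were thus the highest, as for GATA3, TFAP2A, GATA6 and PDGFRA, and the part of the listed genes in those results was not tested. BAMBI weighed most in the 1/7MC sum, with a mean of 60.9 CPM there and 2.21 CPM in MC. CDH3 weighed most in MC, with a mean of 36.4 CPM there and 23.45 CPM in 1/7MC. Of the defining genes of this list, GABRP and VTCN1 had 7 and 6 counts over the 12 libraries, and KRT5, KRT14 and KRT15 were too low to test. Of the mesendoderm genes, TBXT had 2 counts, CER1 1 and GSC 13 over the 12 libraries. With all 12 libraries, only LHX1 and MIXL1 of this list were tested. LHX1, a LIM factor of organiser and forebrain, had a mean of 0.405 CPM in 1/7MC+Pyr+FGF, 1.61 CPM in 1/7MC+Pyr, 0.238 CPM in 1/7MC and 1.499 CPM in MC; it rose by 2.74 ± 0.39 in 1/7MC+Pyr against 1/7MC and fell by 1.97 ± 0.36 on the log2 scale in 1/7MC+Pyr+FGF against 1/7MC+Pyr. MIXL1, a homeobox gene of the primitive streak, had 17, 6 and 8 counts in 1/7MC+Pyr+FGF, 6, 18 and 10 in 1/7MC+Pyr, 10, 24 and 14 in 1/7MC and 5, 1 and 1 in MC. LHX1, like EOMES, had its higher means in 1/7MC+Pyr and MC, while MIXL1, at low counts, did not. The part of either gene in the EOMES result was not tested. Of the 9 pluripotency genes, 7 fell in 1/7MC against MC, where 21.3% of all genes fell, and 7 rose in 1/7MC+Pyr against 1/7MC, where 8.08% rose. In 1/7MC+Pyr+FGF against MC, 2 were higher and 4 lower, where 17.1% of all genes were higher and 15.4% lower. The 2 were NANOG (1.24 ± 0.15) and PRDM14 (0.52 ± 0.09), at 1.39 and 0.56 against MC replicate 1 alone. In 1/7MC+Pyr against MC, 2 were higher and 3 lower, where 15.2% of all genes were higher and 13.2% lower. NANOG (0.93 ± 0.15) was among the higher ones, at 1.11 against MC replicate 1 alone. GATA3 was higher in both comparisons.

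**Figure D5:**
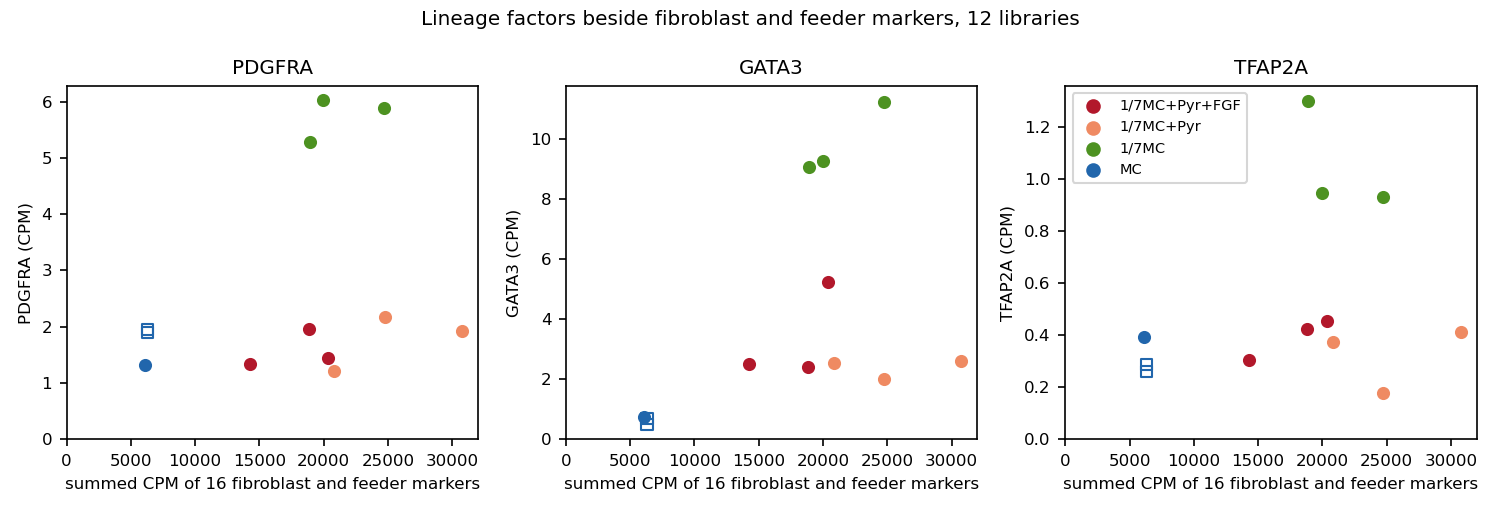
CPM of PDGFRA, GATA3 and TFAP2A against the summed CPM of 16 fibroblast and feeder markers in 12 libraries, coloured by group, with MC replicates 2 and 3 as open squares. The 1/7MC libraries and the 1/7MC+Pyr libraries overlap in the sum, and all 3 genes are higher in every 1/7MC library than in any 1/7MC+Pyr library.

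Among 13897 genes with a symbol, those whose log2 CPM was most like a member's over the 10 libraries of one set of gene models are given as a description; those libraries share 4 groups. GATA3 was most like ATOH8 (Pearson r = 0.99), NDST3 (0.986) and SYNPO2 (0.984). ATOH8, a basic helix-loop-helix factor, had means of 3.71 CPM in 1/7MC+Pyr+FGF, 2.84 CPM in 1/7MC+Pyr, 8.98 CPM in 1/7MC and 0.980 CPM in MC replicate 1. PDGFRA was most like NIBAN1 (0.986), TBX20 (0.974) and NOVA1 (0.972), of which TBX20, a T-box factor, averaged 18.2 CPM in 1/7MC and 0.241 to 0.270 CPM in the other groups. TFAP2A was most like CD207 (0.971), PGM5 (0.964) and CLRN1 (0.962), and EOMES like GLS2 (0.959) and GABRB2 (0.94). TEAD4 was most like USP40 (0.961), TFAP2C like TNNT1 (0.951), GATA2 like DCAF5 (0.954) and GATA6 like SERPINF1 (0.933).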

How the data were processed

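Poly-A RNA libraries were made with a NEBNext Ultra kit from random-primed fragments, per the labels' protocols; a strand-marking step is not mentioned there, which leaves overlapping and antisense genes uncertain. The submitters' processing notes name fastp 0.19.7, HISAT2 2.1.0, Subread 2.0 and featureCounts with the build bosTau9; the annotation and settings are not given in the sources used here. The authors deposited whole-number counts per gene, not normalised, and a table named TPM whose signal is the count over gene length times 1 constant, with no correction for depth; gene length was taken from the deposited table. Symbols came from Entrez identifiers and a gene table of ARS-UCD2.0 (19195 of 19285 entries matched), another build, so no coordinates are given. The 400 entries that share an identifier were left out (1.07% to 1.40% of the counts of a library); no member is among them. Filtering used filterByExpr with a minimum count of 10, which left 13920 genes (14361 with MC replicate 1 alone). One edgeR 4.0.16 fit over all libraries had 1 coefficient per group, with TMM scaling, and the SE is the fold change over the square root of F. Log2 CPM used a prior count of 2. Alternatives used DESeq2 1.42.0 and limma 3.58.1; scripts ran in R 4.3.3 and Python 3.11.15, with figures by matplotlib 3.10.9. The test was tried on simulated data. The 8 members and 12 gene lists were chosen with earlier results of these data known. Beside the members, up to 4 called genes of largest change per list and comparison, and the 3 genes of most similar pattern per member, could be named, except 1 that is not reported here; counts of defining lineage markers, FOXA2, MIXL1 and ETS1 were picked after their values were seen.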

Additional observations from a re-analysis of the deposited data

How the results depend on the processing

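Of 23 member differences called, 460 of 473 values under alternatives kept their call and direction. Of 25 not called, 503 of 511 values stayed uncalled. No value changed sign where it was called in either the main fit or the alternative. Uncalled values could change sign, as for TFAP2A in 1/7MC+Pyr against MC (-0.26 to 0.305 over the alternatives). The alternatives were MC replicate 1 alone, each library left out, a replicate block, other size factors, DESeq2, no filter, a stricter filter of 5 CPM in 3 libraries, entries with shared identifiers kept, fits of 2 groups and the rescaled signal. GATA3, PDGFRA, TFAP2C and GATA2 kept every call under the alternatives that tested them. Under the stricter filter only 4 members were tested, which left 2 called in 1/7MC+Pyr+FGF against MC, 2 in 1/7MC+Pyr and 3 in 1/7MC+Pyr+FGF against 1/7MC, and 0 in 1/7MC+Pyr+FGF against 1/7MC+Pyr, whose 1 called member, EOMES, was not tested there (with all 8 tested, 3 had an unadjusted edgeR p under 0.05 and DESeq2 called 1). With MC replicate 1 alone, 3438, 1394 and 1723 genes were called in 1/7MC, 1/7MC+Pyr and 1/7MC+Pyr+FGF against MC. The log2 scale of the rescaled signal with its pseudocount of 1 shrinks low genes, as for TFAP2A in 1/7MC against MC (0.40).

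Leaving out 1 library gave 5001 to 6953 genes and 5 to 6 members called in 1/7MC against MC, 2571 to 5151 and 2 to 3 in 1/7MC+Pyr against MC, 3015 to 5337 and 4 to 5 in 1/7MC+Pyr+FGF against MC, 1423 to 3137 and 4 to 5 in 1/7MC+Pyr against 1/7MC, 2697 to 4579 and 5 to 6 in 1/7MC+Pyr+FGF against 1/7MC, and 127 to 736 and 0 to 1 in 1/7MC+Pyr+FGF against 1/7MC+Pyr. The last comparison had 902 genes by DESeq2 and 181 with the replicate block, against 384. Same-numbered libraries share only a number: 2 of 18 pairs had deviations correlated above 0.1 (r from -0.316 to 0.333), and 3 of 12 libraries correlated best with their own number. The block ended the GATA6 call in 1/7MC+Pyr against 1/7MC and no other call of a member.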

Other observations

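In the endothelial and blood list, 8 of 9 genes were tested, and in 1/7MC+Pyr+FGF against 1/7MC 3 were higher and 2 lower, where 27.6% of all genes were called. TAL1, a factor that works with GATA2 in blood and endothelium, rose by 1.23 ± 0.19, and the receptors KDR and TEK rose by 1.92 ± 0.27 and 1.22 ± 0.14, in the comparison in which GATA2 fell by 1.93 ± 0.39 on the log2 scale (edgeR adjusted p = 0.00324). PECAM1, an endothelial adhesion molecule, was 1 of the 2 called lower, with 5, 6 and 9 counts in 1/7MC+Pyr+FGF and 17, 20 and 12 in 1/7MC. It passed the filter through 1/7MC, where it was high, so these counts are a description. The summed level of the list was 51.9 to 73.5 CPM in 1/7MC+Pyr+FGF, 50.5 to 53.3 CPM in 1/7MC+Pyr, 29.9 to 40.4 CPM in 1/7MC and 31.8 to 34.8 CPM in MC. Of the 9 GATA and AP-2 cofactors, all tested, 1 was higher and 3 were lower in the same comparison, where 11.9% of all genes were higher and 15.7% lower. ZFPM1, the GATA partner of blood, fell by 1.43 ± 0.20 on the log2 scale and CITED2, a coactivator of AP-2, rose by 0.67 ± 0.09. ZFPM2, which passed the filter through 1/7MC, is among the 3 lower as a description.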
